A study of Mus musculus with 2 samples.

Results

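Icam1, Vcam1, Madcam1, Cd274, Pdcd1lg2, Cd47 and Lgals9 encode surface or secreted proteins through which stromal cells meet leukocytes. The 7 genes were taken by symbol from the 33696 features of both count matrices, as a list of leukocyte adhesion and checkpoint ligands, with no threshold on measured values. ICAM-1, VCAM-1 and MAdCAM-1 are ligands of leukocyte integrins and let leukocytes attach to endothelial and stromal cells. PD-L1 and PD-L2, the products of Cd274 and Pdcd1lg2, bind the inhibitory receptor PD-1 on T cells. CD47 binds SIRP-alpha on macrophages and restrains phagocytosis, and galectin-9, the product of Lgals9, binds sugars on T cell surface proteins such as TIM-3. Icam1, Vcam1 and Cd274 are textbook targets of inflammatory cytokine signalling, and Cd274 and Lgals9 are known to respond to interferon gamma.

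Colons of mice with floxed Il10ra alleles that also carried Pdgfra-cre (Il10ra ff; Pdgfra-cre) were set against those of mice with the floxed alleles alone (Il10ra ff). The design text gives 2 mice of 6 months per genotype. Each genotype has 1 single-cell library, and the labels do not say whether its mice were pooled. Sorted cells were alive, Podoplanin+ and negative for CD45, CD31 and EpCAM, and the start of each transcript was read with a droplet kit of 10x Genomics. Floxed Il10ra is common to both groups, and the Cre is active where Pdgfra is or has been expressed, and which cells lost Il10ra was not measured. Below, the libraries are called the Cre library and the control library. With 1 library per genotype there is no replicate and no test between genotypes. Intervals are 95% intervals that cover counting error only.

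The Cre library held 8627 barcodes with a median of 7332 UMIs, and the control library 11380 with a median of 6505. After filters on genes, mitochondrial UMIs and doublets, 8316 cells remained in the Cre library and 10573 in the control library. The barcode strings of 104 kept cells occurred in both libraries. Fibroblasts, taken as cells that express a set of collagen and matrix genes and pass no gate for another cell type, numbered 7644 in the Cre library and 9391 in the control library, with median UMIs of 7585 in the Cre library and 6622 in the control library. Il10ra itself had 3 UMIs in fibroblasts of the Cre library and 1 in those of the control library, too few to check the deletion. Pdgfra, whose promoter drives the Cre, had 343 CPM in fibroblasts of the Cre library and 346 in those of the control library, in UMIs scaled as below.

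Fibroblasts were divided by 4 marker gates, called subepithelial, lamina propria, adventitial and trophocyte after the markers used. Cells that passed none of the 4 were kept as unclassed fibroblasts. The gates were compared with clusters of all kept cells, whose values below take in every cell of the cluster, gated or not. Of the subepithelial gate, 93.8% of cells lay in the cluster where these markers were most enriched, and of the lamina propria gate, 98.3% lay in clusters led by lamina propria markers. The adventitial gate matched its name least: 40.7% of its cells lay in clusters led by adventitial markers, 34.6% in clusters led by trophocyte markers and 24.6% in clusters led by lamina propria markers. Led by means the highest of 4 mean log2 enrichments over the other fibroblast clusters, which need not be positive. It was negative in cluster 0 (-0.50, lamina propria), cluster 12 (-0.28, trophocyte) and cluster 14 (-0.11, adventitial). In clusters 4 and 9, both led by trophocyte markers, it was 0.29 and 0.27. Cluster 0 held 15.5% of the adventitial gate and 20.6% of the lamina propria gate. Shares that rest on these clusters are weakly labelled. Of cells that passed the gate for interstitial cells of Cajal, 52.1% lay in the subepithelial cluster, and 76.5% of those in the pericyte gate lay in clusters led by trophocyte markers. Of the trophocyte gate, 80.5% of cells in the Cre library and 57.1% in the control library lay in clusters led by trophocyte markers. Of its cells, 439 of 596 in the Cre library and 153 of 177 in the control library lay 1 marker from the limit of the gate. All gate names below mean the markers used and no more.

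The libraries filled the clusters unevenly. Of the lamina propria gate, cluster 1 held 67.7% of the cells in the Cre library and 1.80% in the control library, where clusters 0 and 7 held 40.4% and 28.6%. Of the adventitial gate, cluster 4 held 31.2% of cells in the Cre library, and cluster 0 held 26.3% in the control library. Of the trophocyte gate, cluster 8 held 33.2% in the Cre library and 33.9% in the control library, followed by cluster 4 with 31.2% in the Cre library and cluster 0 with 15.8% in the control library. The subepithelial gate was nearly all cluster 3 in both libraries, with 97.4% in the Cre library and 92.4% in the control library.

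For 3 genes whose values are described at length below, the 250 bases before the RefSeq transcription start are shown, because they let a reader look for letters of interferon response motifs. The sequences are those of RefSeq on GRCm38.p6, while the counts were made on GRCm39. Capitals mark matches to a GAS motif (TTCNNNGAA) or an ISRE core (GAAA and GAAA with any 2 bases between them), searched on both strands. The NF-kappaB motif was searched as GGGRNNYYCC (R is A or G, Y is C or T) and had no match in these 3. Sites with other letters are missed by this pattern. The stretch TGGAAATTCC in the Icam1 window differs from it in the first letter only.
Icam1, chr9:21015690-21015939, plus strand: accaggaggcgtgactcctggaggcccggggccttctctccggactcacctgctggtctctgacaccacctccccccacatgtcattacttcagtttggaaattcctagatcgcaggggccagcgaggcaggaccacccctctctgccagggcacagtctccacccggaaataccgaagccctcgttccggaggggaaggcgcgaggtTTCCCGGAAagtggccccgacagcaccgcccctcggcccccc
Lgals9, chr11:78984925-78985174, minus strand: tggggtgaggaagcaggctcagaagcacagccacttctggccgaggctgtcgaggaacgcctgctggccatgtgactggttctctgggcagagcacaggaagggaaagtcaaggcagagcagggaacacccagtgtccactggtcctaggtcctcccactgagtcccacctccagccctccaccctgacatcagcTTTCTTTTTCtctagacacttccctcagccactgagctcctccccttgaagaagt
Cd274, chr19:29367188-29367437, plus strand: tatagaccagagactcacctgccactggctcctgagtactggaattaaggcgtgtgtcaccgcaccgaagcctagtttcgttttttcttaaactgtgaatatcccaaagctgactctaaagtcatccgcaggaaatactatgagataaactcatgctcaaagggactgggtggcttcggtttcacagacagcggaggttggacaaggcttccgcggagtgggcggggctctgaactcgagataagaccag
The Icam1 window held 1 GAS match, from 42 to 34 bases before the start. The Lgals9 window held 1 ISRE core on the opposite strand, from 55 to 46 bases before the start. The Cd274 window held no match to the 3 motifs, which says nothing of sites elsewhere. Of 32851 promoter windows of the same length, 7.02% held a GAS match, 2.98% an ISRE core and 7.25% an NF-kappaB match. Among the others, the Madcam1 window held 2 NF-kappaB matches and that of Pdcd1lg2 held 1, and neither of the windows of Cd47 held any. Vcam1 had no entry among the promoter sequences used, so its promoter was not searched. The matches overlapped with no other motif match, and they describe letters, not binding.

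In fibroblasts as a whole, Icam1 and Cd274 were at least 1.5-fold higher in the Cre library, and none of the 7 genes passed as 1.5-fold lower. Levels are in CPM, the UMIs of a gene scaled to 1 common total of UMIs in each group of cells (counts per 1e6), and measured means a mean of at least 10 CPM over the libraries. Across the 9026 genes measured in fibroblasts, 3.8% were 1.5-fold higher and 3.15% were 1.5-fold lower in the Cre library. Of the 7, 5 were measured this way, and 2 of these 5 were called. Their median log2 ratio, with 1 CPM added, was 0.41, beside -0.04 over all measured genes. In the gates, the shares of measured genes that were 1.5-fold lower were 3.63% (subepithelial), 3.58% (lamina propria), 3.47% (adventitial), 7.76% (trophocyte), 3.51% (unclassed fibroblasts), 5.69% (smooth muscle) and 12.2% (glia), and 0 of the measured members of the list were among them in any. Cd274 had a log2 ratio of 1.54, and 76 of the measured genes, or 0.842%, had a higher one. For Icam1 this share was 3.33%, for Vcam1 5.82%, for Cd47 7.10% and for Lgals9 21.1%.

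**Figure D1:**
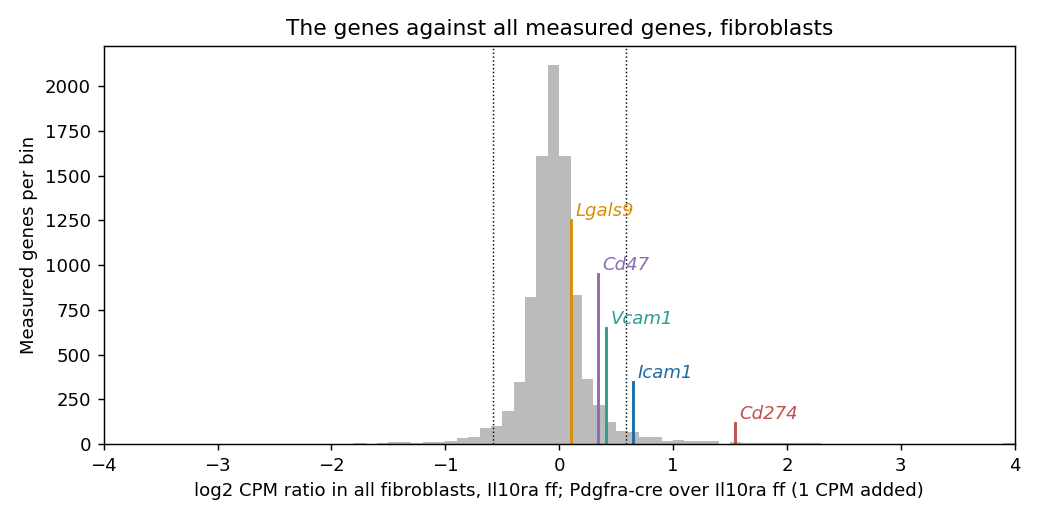
Histogram of the log2 CPM ratio, Cre library over control library, of the 9026 genes measured in fibroblasts, in bins of 0.1, with coloured lines at the 5 measured genes (line heights are for legibility only) and dotted lines at 1.5-fold. Lgals9 sits within the body of the distribution at 0.11 and Cd274 in its upper tail at 1.54.

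Icam1, the ligand of the leukocyte integrins LFA-1 and Mac-1, was broadly detected. It had 35940 UMIs (587 CPM) in fibroblasts of the Cre library and 24003 (374 CPM) in those of the control library, a ratio of 1.57 (1.54 to 1.59). At least 1 UMI was seen in 79.4% of fibroblasts in the Cre library and 64.8% in the control library. After each cell was thinned to 2000 UMIs the shares were 55.1% and 42.2%, in the same order of libraries. Among the 6 gates plotted, the lowest shares before thinning were those of glia, 17.9% in the Cre library at a median of 5108 UMIs and 9.09% in the control library at a median of 4272.5 UMIs. Smooth muscle cells had 27.1% in the Cre library at a median of 6442 UMIs and 12.1% in the control library at a median of 6670 UMIs. The fibroblast shares were above both. By CPM the order of these 2 gates differed between libraries. Glia were lower in the Cre library, at 97.6 against 118 in smooth muscle. In the control library smooth muscle was lower, at 37.3 against 81.9 in glia.

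Among the fibroblast gates, Icam1 was highest in the trophocyte gate, filled by different clusters in the libraries, with 726 CPM in the Cre library and 574 in the control library. The lamina propria gate followed with 639 CPM in the Cre library and 479 in the control library. The adventitial gate had 565 CPM in the Cre library and 351 in the control library. The subepithelial gate was lowest, with 291 CPM in the Cre library and 223 in the control library. Neighbours in this order of 4 gates had intervals that did not overlap within a library. In the Cre library the subepithelial level was 0.483 times that of the other fibroblasts (0.452 to 0.516), and in the control library 0.564 times (0.536 to 0.592).

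In 3 of the 4 gates the ratio between libraries for Icam1 was smaller than over all fibroblasts. It was 1.31 (1.21 to 1.42) in the subepithelial gate, 1.33 (1.28 to 1.38) in the lamina propria gate and 1.27 (1.16 to 1.38) in the trophocyte gate. Only the adventitial gate, mixed as described, passed 1.5-fold among the 4, at 1.61 (1.57 to 1.65). With only its cells in clusters led by adventitial markers, it was 1.58 (1.52 to 1.65). Within the 12 fibroblast clusters that had at least 50 cells of each library, Icam1 was higher in the Cre library in 11, with intervals above 1 in 7, but in none by 1.5-fold. Clusters share the same pair of libraries and are not replicates. No share of all measured genes stands beside such cluster counts, here or for the genes below. Of the clusters led by adventitial markers, its ratio was 1.003 (0.929 to 1.08) in cluster 2, 1.03 (0.926 to 1.14) in cluster 6, 1.14 (1.07 to 1.22) in cluster 11 and 1.01 (0.812 to 1.26) in cluster 14. The highest was 1.42 in the subepithelial cluster 3. With these clusters weighted alike the log2 ratio was 0.22, against 0.65 with each cell weighted alike, and with the 4 gates weighted alike it was 0.45. Both are below the call.

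Vcam1, the ligand of the integrin VLA-4, had 10603 UMIs (173 CPM) in fibroblasts of the Cre library and 8344 (130 CPM) in those of the control library, a ratio of 1.33 (1.29 to 1.37). Shares of fibroblasts with a UMI were 49.3% in the Cre library and 42.3% in the control library, beside 12.2% in smooth muscle cells of the Cre library and 3.78% in those of the control library. The lamina propria gate was highest of the 4, at 256 CPM in the Cre library and 182 in the control library. The subepithelial gate was lowest among the 4 fibroblast gates, at 60.7 CPM in the Cre library and 31.5 in the control library, yet its ratio was the largest of theirs, 1.93 (1.58 to 2.34).

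Vcam1 in the subepithelial gate was called at 1.5-fold or more, where 4.86% of 9348 measured genes were higher by that much. In cluster 3 alone it was 58.3 CPM in the Cre library and 18.7 in the control library, a ratio of 3.11 (2.51 to 3.87). Without cells over the 95th percentile of UMIs the log2 ratio in the gate was 0.53, below the call, against 0.92 with them. In the lamina propria gate the ratio was 1.41 (1.32 to 1.49), in the adventitial gate 1.15 (1.10 to 1.20) and in the trophocyte gate 1.04 (0.873 to 1.25).

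Across clusters the direction for Vcam1 was mixed. Of the 12 fibroblast clusters it was higher in the Cre library in 6 and lower in 6, with intervals above 1 in 6 and below 1 in 2. In cluster 9, led by trophocyte markers, it had 30.4 CPM in the Cre library and 55.4 in the control library, a ratio of 0.549 (0.433 to 0.702). In cluster 4, led by the same markers, it had 243 CPM in the Cre library and 141 in the control library, a ratio of 1.72 (1.39 to 2.16). Cluster 1, with 1760 cells of the Cre library and 53 of the control library, had 304 CPM in the Cre library and 386 in the control library. Weighted alike, the clusters gave a log2 ratio of 0.15 for Vcam1.

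Madcam1, the ligand of the gut-homing integrin alpha4beta7 and typically made by endothelial venules, was at or near the limit of detection. It had 5 UMIs in all kept cells of the Cre library and 4 in those of the control library, of which 4 and 3 lay in fibroblasts. A count of 0 would allow up to 0.0460 CPM in the Cre library and 0.0420 CPM in the control library. CD31+ cells had been sorted out.

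**Figure D2:**
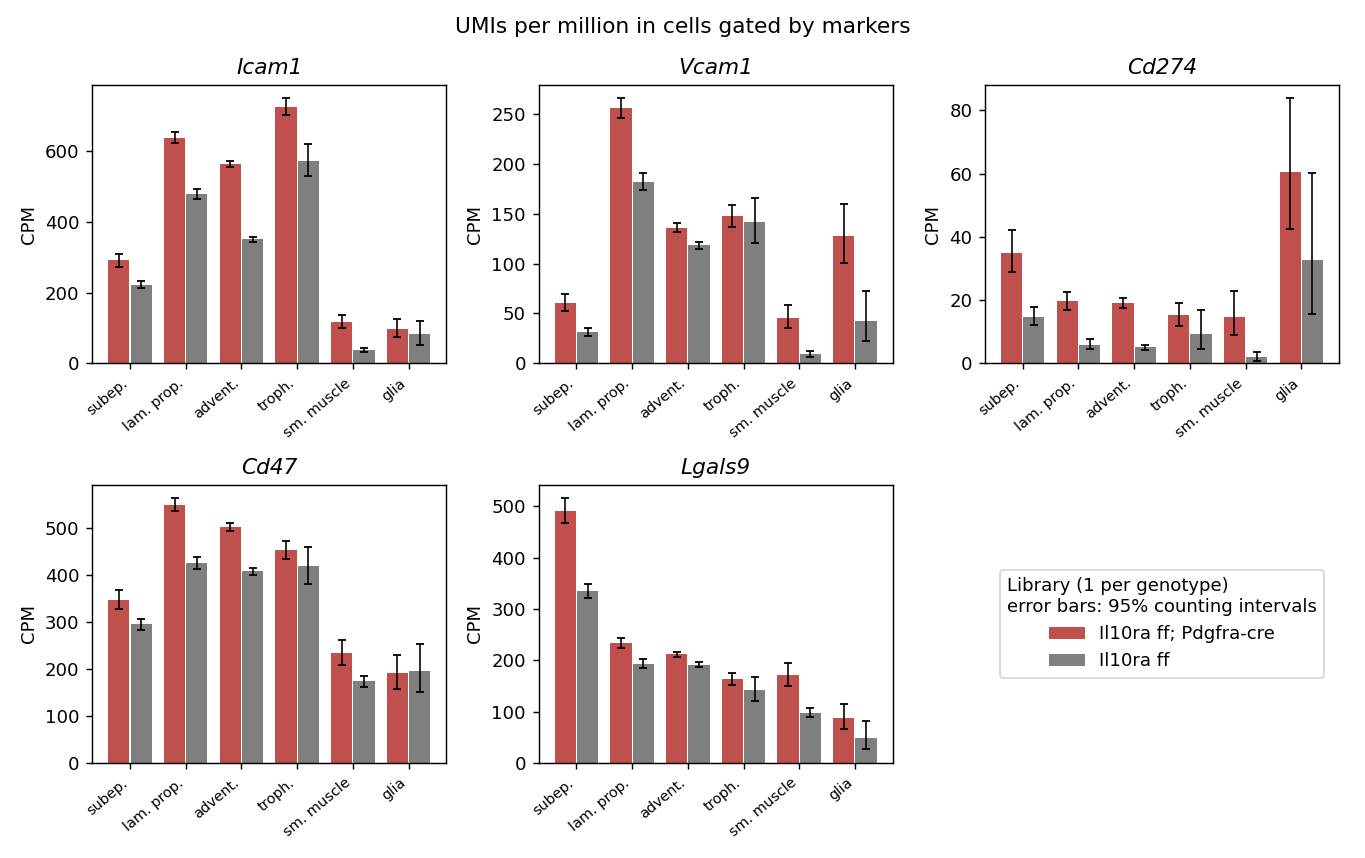
CPM of Icam1, Vcam1, Cd274, Cd47 and Lgals9 in cells passing 4 fibroblast gates and the smooth muscle and glia gates. Bars are 1 library each, the Cre library left of the control library, and error bars are 95% Poisson intervals. Lgals9 is highest in the subepithelial gate (491 CPM in the Cre library and 335 in the control library), where Icam1 and Vcam1 are lowest among fibroblast gates.

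Cd274, which encodes PD-L1, had the largest ratio of the 5 measured genes in fibroblasts. It had 1219 UMIs (19.9 CPM) in the Cre library and 396 (6.17 CPM) in the control library, a ratio of 3.22 (2.87 to 3.62). It was detected in 10.6% of fibroblasts of the Cre library (9.93% to 11.3%) and 3.76% of those of the control library (3.38% to 4.16%). After thinning to 2000 UMIs the shares were 3.39% in the Cre library and 1.18% in the control library. Cells with at least 2 UMIs numbered 215 in the Cre library and 29 in the control library, and the richest cell held 14 UMIs in the Cre library and 8 in the control library.

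Among the 6 gates plotted, smooth muscle cells had the lowest share with a Cd274 UMI, 7.45% in the Cre library and 0.728% in the control library. Fibroblast shares were above this in both libraries, but in the Cre library by little. In summed counts, a larger share of expressing cells and more RNA per expressing cell cannot be told apart.

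By gate, Cd274 was highest among fibroblasts in the subepithelial gate, at 35.0 CPM in the Cre library and 14.7 in the control library, a ratio of 2.38 (1.81 to 3.12). The lamina propria gate had 19.6 CPM in the Cre library and 5.81 in the control library, a ratio of 3.37 (2.49 to 4.64). In this gate 5.09% of measured genes were 1.5-fold higher, and Cd274 was the 1 of the 7 genes among them. The adventitial gate had 19.1 CPM in the Cre library and 5.035 in the control library, a ratio of 3.79 (3.16 to 4.57), with 3.93% of measured genes higher by 1.5-fold.

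In the trophocyte gate Cd274 had 15.2 CPM in the Cre library and 9.17 in the control library. This rests on 72 UMIs in the Cre library and 10 in the control library, and the interval of the ratio, 1.65 (0.849 to 3.59), spans 1. It was past 1.5-fold in 7 of 12 alternatives. Here 4.98% of measured genes were 1.5-fold higher. Unclassed fibroblasts had 19.98 CPM in the Cre library and 4.22 in the control library, a ratio of 4.73 (3.62 to 6.26), beside 4.8% of measured genes higher.

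Within clusters, Cd274 was higher in the Cre library in 12 of the 12 fibroblast clusters, by at least 1.5-fold in 10 of them and with intervals above 1 in 8. In 4 of those 10 (clusters 0, 2, 5 and 11) its mean was under 10 CPM, so these would not count as calls. How many of all measured genes were higher in the same clusters is not given, and the clusters are not replicates. The median of the 12 ratios was 1.98, and they ran between 1.28 in cluster 8 and 8.78 in cluster 14, where the interval was 1.18 to 389.6 from 8 UMIs in the Cre library and 1 in the control library. In the subepithelial cluster 3 it had 37.1 CPM in the Cre library and 14.5 in the control library, a ratio of 2.56 (1.98 to 3.32). With clusters weighted alike the log2 ratio was 1.19, and over all 13 alternatives that gave a value it stayed between 0.89 and 1.58. In cluster 7, which held 34 cells of the Cre library and was not among the 12, the ratio was 0.636 (0.0158 to 3.69).

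**Figure D3:**
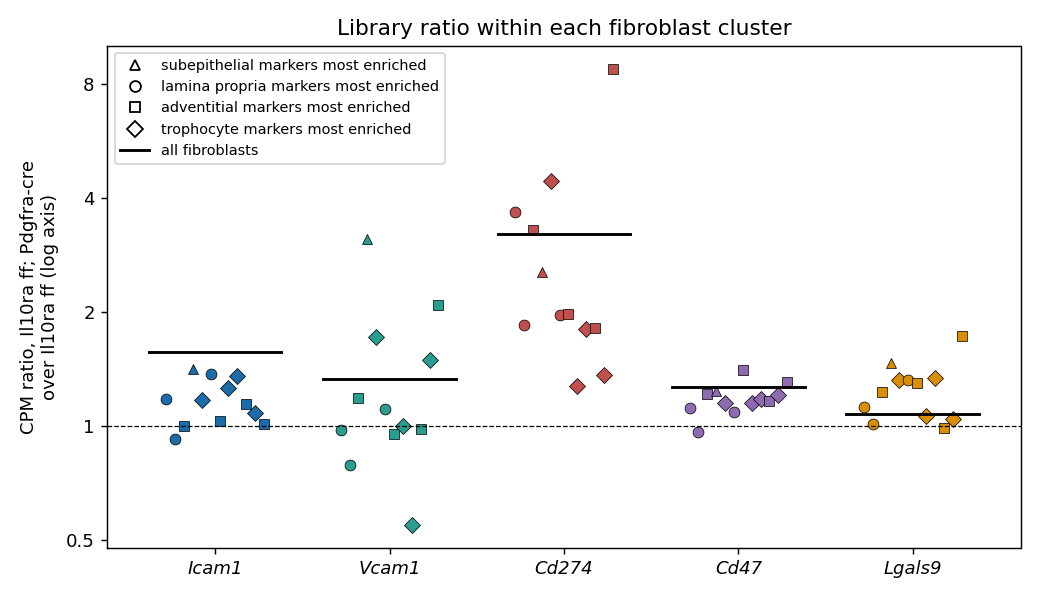
CPM ratio, Cre library over control library, on a log axis, in each of the 12 fibroblast clusters with at least 50 cells of each library. Marker shapes give the gate whose markers have the highest mean enrichment in the cluster, which is negative in clusters 0, 12 and 14. Black lines give the ratio over all fibroblasts. For Icam1 each of the 12 clusters lies below the line at 1.57, and for Vcam1 the clusters spread on both sides of 1.

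Cd274 was not limited to fibroblasts. The glia gate had 60.6 CPM in the Cre library and 32.8 in the control library, from 36 and 10 UMIs of the same libraries, and the ratio of 1.85 (0.899 to 4.18) has an interval that spans 1. Glial shares after thinning, 6.54% in the Cre library and 9.84% in the control library, run against the CPM and were read as no order. Among gates with at least 50 cells in a library, the glial interval overlapped that of the gate for interstitial cells of Cajal in both libraries, and the subepithelial level came next. The mesothelium gate had 39.7 CPM in 46 cells of the Cre library and 11.4 in 61 cells of the control library, a ratio of 3.47 (1.43 to 9.61) from 22 UMIs in the Cre library and 7 in the control library. In this gate 15% of 9517 measured genes were 1.5-fold higher. Leukocyte genes summed to 445 CPM in it in the Cre library, of which Cd74 gave 439.9, and to 45.8 CPM in the control library, of which Cd74 gave 42.5, and their part in the ratio was not tested. Ptprc had 0 UMIs there in both libraries.

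Pdcd1lg2, which encodes PD-L2, was nearly undetected. It had 4 UMIs in fibroblasts of the Cre library and 1 in those of the control library. Of 7 UMIs in all kept cells of the Cre library, 3 lay in cells that passed no gate, and each of those 3 cells also held at least 10 UMIs of a leukocyte gene list.

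Cd47, in fibroblasts, had 30987 UMIs (506 CPM) in the Cre library and 25613 (399 CPM) in the control library, a ratio of 1.27 (1.25 to 1.29). It was detected in 89.4% of fibroblasts of the Cre library and 84.0% of those of the control library, or 60.4% and 52.9% after thinning, in the same order. Before thinning, glia had the lowest shares among the 6 gates plotted, 58.0% in the Cre library and 54.5% in the control library. By CPM in the control library, smooth muscle was lower, at 174 against 197 in glia. The lamina propria gate had 549 CPM in the Cre library and 425 in the control library. The subepithelial gate had 347 CPM in the Cre library and 295 in the control library, the lowest of the fibroblast gates in both.

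The ratio of Cd47 stayed below 1.5 in all 4 fibroblast gates, from 1.08 (0.975 to 1.20) in the trophocyte gate to 1.29 (1.24 to 1.34) in the lamina propria gate. It was higher in the Cre library in 11 of the 12 fibroblast clusters, with intervals above 1 in 11. In smooth muscle the level was 234 CPM in the Cre library and 174 in the control library. In glia it was 192 CPM in the Cre library and 197 in the control library, a ratio of 0.976 (0.708 to 1.36).

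Lgals9 was highest in the subepithelial gate. There it had 491 CPM in the Cre library and 335 in the control library, which was 2.29 times (2.17 to 2.41) and 1.71 times (1.64 to 1.79) the level of the other fibroblasts of the same library. It was detected in 85.8% of subepithelial cells of the Cre library and 79.7% of those of the control library, and in 57.4% and 47.4% after thinning. The lamina propria gate had 234 CPM in the Cre library and 193 in the control library, and the trophocyte gate 163 in the Cre library and 143 in the control library. Glia were lowest, at 87.5 CPM in the Cre library and 49.2 in the control library, with 32.1% and 18.2% of cells detected at the depths given for Icam1.

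Over all fibroblasts, Lgals9 had 229 CPM in the Cre library and 212 in the control library, a ratio of 1.08 (1.05 to 1.10), and its thinned shares were 32.6% in the Cre library and 32.4% in the control library. It was higher in the Cre library in 11 of the 12 fibroblast clusters, with intervals above 1 in 6 and a median ratio of 1.27. Within the subepithelial gate the ratio was 1.47 (1.38 to 1.56), and in the lamina propria gate 1.21 (1.14 to 1.29). It was 1.14 (0.958 to 1.36) in the trophocyte gate and 1.11 (1.07 to 1.15) in the adventitial gate. Unclassed fibroblasts had a ratio of 1.06 (1.01 to 1.12). The share of fibroblasts in the subepithelial gate, where the gene is highest, was lower in the Cre library: 422 of 7644 cells, against 1086 of 9391 in the control library. Fibroblasts outside that gate had 214 CPM of Lgals9 in the Cre library and 196 in the control library. The part of this share in the ratio over all fibroblasts was not tested. With the 4 gates weighted alike the log2 ratio was 0.35, against 0.11 with each cell weighted alike.

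**Figure D4:**
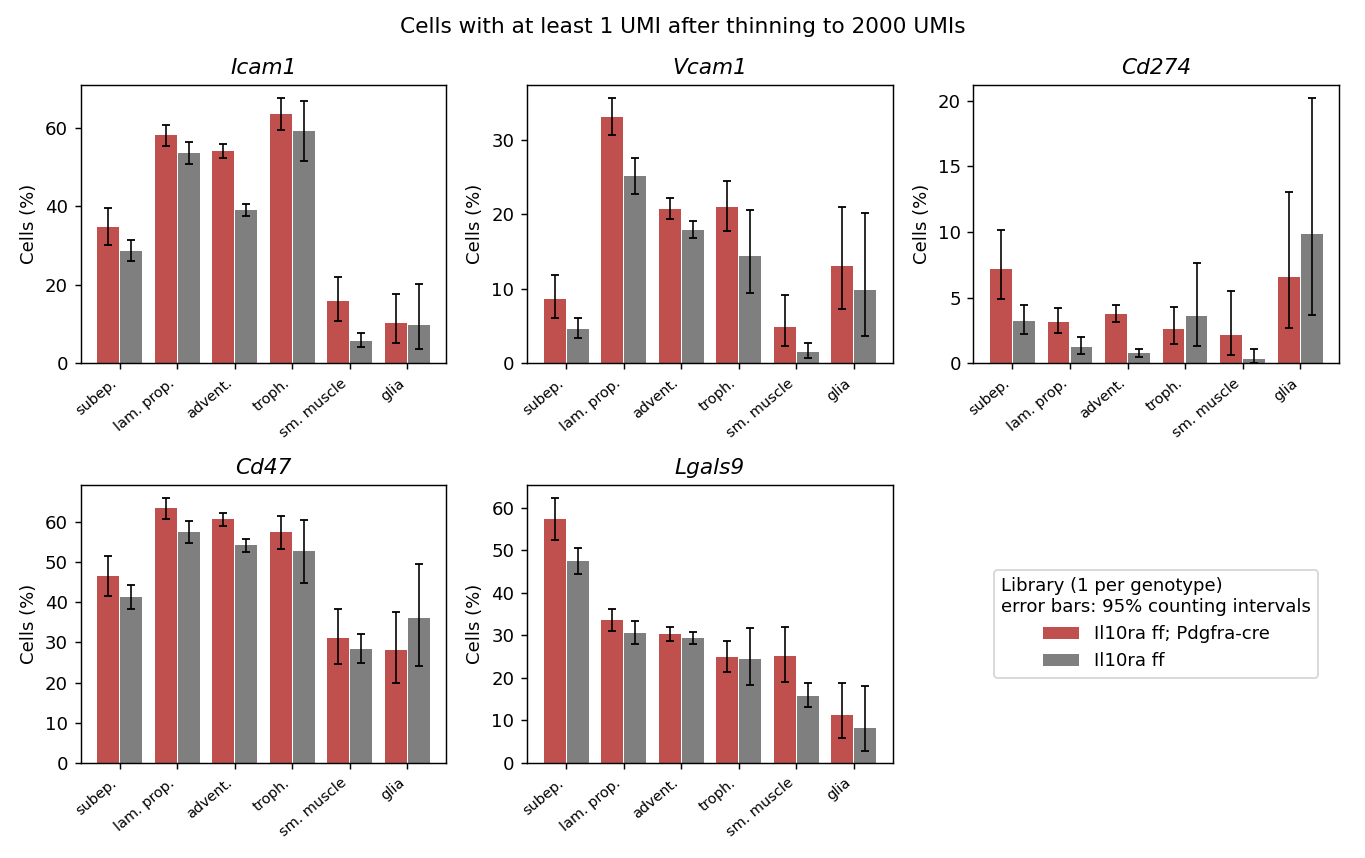
Percentage of cells with at least 1 UMI of each gene after every cell was thinned to 2000 UMIs, with 95% Clopper-Pearson intervals, in 4 fibroblast gates, smooth muscle and glia, the Cre library left of the control library. Icam1 in the adventitial gate stands at 54.1% in the Cre library and 39.1% in the control library, while the glial bars of Cd274 overlap within their intervals.

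Smooth muscle cells, which were gated by contractile genes, showed larger ratios than fibroblasts for Icam1, Vcam1 and Lgals9. Icam1 had 118 CPM in the Cre library and 37.3 in the control library, a ratio of 3.17 (2.54 to 3.95). Vcam1 had 45.8 CPM in the Cre library and 9.22 in the control library, a ratio of 4.97 (3.31 to 7.51). Lgals9 had 172 CPM in the Cre library and 97.5 in the control library, a ratio of 1.76 (1.5001 to 2.07). These were 3 of the 4 genes measured there, and 7.65% of 9154 measured genes were 1.5-fold higher. Cd274, with a mean under 10 CPM, had 20 UMIs in the Cre library and 9 in the control library, a ratio of 7.66 (3.33 to 19.1).

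Other values in this gate went in both directions. The gate held 188 cells of the Cre library and 687 of the control library. Within it the fibroblast gene Pdgfra had 115 CPM in the Cre library and 32.4 in the control library, and Pdpn 105 and 60.2. The list of 6 fibroblast markers, which includes Pdgfra, went the other way, at 4257 CPM in the Cre library and 5259 in the control library. In the same order of libraries, Col1a1 had 312 and 455 CPM, Col3a1 1235 and 1775, and Dcn 1916 and 2088. Myh11, a smooth muscle myosin, had 4076 CPM in the Cre library and 4121 in the control library. A list of 12 leukocyte genes summed to 71.6 CPM in the Cre library and 14.6 in the control library, with Ptprc at 0 UMIs in both. Cd74 gave 44.3 CPM of the sum in the Cre library. The highest gene in the control library was Jchain, at 3.86 CPM. Within cluster 10, which held 92.6% of the gate in the Cre library and 95.9% in the control library, the ratios were 4.49 (3.44 to 5.87) for Icam1, 10.4 (5.997 to 19.0) for Vcam1 and 1.66 (1.40 to 1.98) for Lgals9, larger than in the gate for Icam1 and Vcam1 and smaller for Lgals9. The part of fibroblast RNA in these ratios was not tested.

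In glia, Vcam1 had 128 CPM in the Cre library and 42.6 in the control library, a ratio of 3.002 (1.655 to 5.90). With 112 cells of the Cre library and 66 of the control library, 18.8% of 9214 measured genes were 1.5-fold higher here, so the 3 of 5 genes called, Vcam1, Cd274 and Lgals9, stand against a wide background. Leukocyte genes summed to 313 CPM in glia of the Cre library, of which Cd74 gave 276, and to 42.6 CPM in those of the control library, all of it Lyz2. Of the 12 genes of this list, 8 had no UMI in glia of the Cre library and 11 in those of the control library. Ptprc was among them in both. Which cells made this RNA was not tested.

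**Figure D5:**
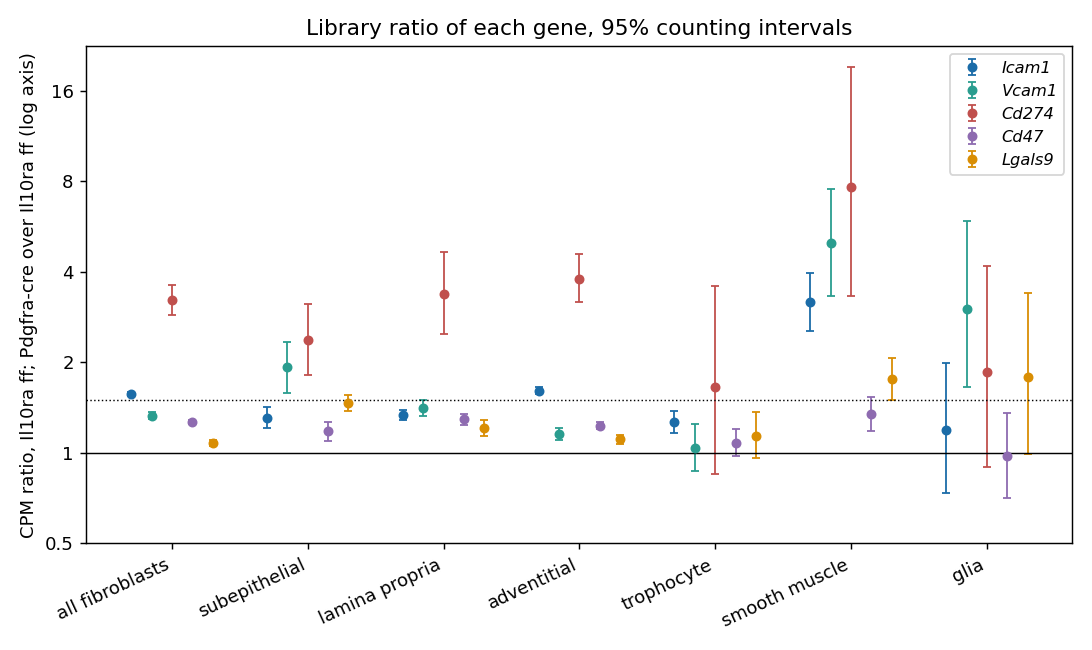
CPM ratio, Cre library over control library, on a log axis with 95% counting intervals, for all fibroblasts, the 4 fibroblast gates, smooth muscle and glia. The solid line marks 1 and the dotted line 1.5. Cd274 lies above 1.5 in all 7 columns, with intervals that reach below 1 in the trophocyte and glia gates.

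Some single fibroblasts carried several of the genes. After thinning, 22.0% of fibroblasts of the Cre library and 14.3% of those of the control library held UMIs of at least 3 of the 7, and 9.61% and 15.9% held none. Icam1 and Vcam1 were seen together in 14.2% of fibroblasts of the Cre library and 9.02% of those of the control library. Fibroblasts with Icam1 alone of this pair made up 40.9% in the Cre library and 33.2% in the control library. Those with Vcam1 alone were 9.48% in the Cre library and 9.85% in the control library. In the subepithelial gate both were seen together in 3.96% of cells of the Cre library and 1.602% of those of the control library. Joint shares also rise with the share of each gene alone. Whether the genes occurred together beyond that was not tested.

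Fibroblasts that held the interferon-induced chemokine Cxcl9 had higher levels of Vcam1 in both libraries and of Cd274 in the Cre library. Cxcl9 and Cxcl13 were chosen with earlier results known. There were 278 fibroblasts with at least 3 Cxcl9 UMIs in the Cre library and 35 in the control library. Vcam1 in these was 445 CPM in the Cre library and 240 in the control library, against 154 and 129 in fibroblasts without a Cxcl9 UMI of the same libraries. Cd274 in them was 44.1 CPM in the Cre library and 12.4 in the control library, the control value from 5 UMIs, against 17.9 and 6.11 in fibroblasts without. With so few UMIs the control values of Cd274 were read as no order. The cells chosen were deeper, with medians of 10446 UMIs in the Cre library and 11281 in the control library, against 7451 and 6599 without. The share of all genes that were higher in the chosen cells is not given, so a link particular to Vcam1 and Cd274 is not shown.

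Cells with Cxcl13, a chemokine that attracts B cells, also had higher Vcam1 in the Cre library. With at least 3 Cxcl13 UMIs, Vcam1 was 267 CPM in 1364 fibroblasts of the Cre library and 146 in 584 of the control library. Without any, it was 143 CPM in the Cre library and 129 in the control library. Cd274 differed little by Cxcl13, with 21.8 CPM in cells with and 19.6 in cells without in the Cre library.

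Cd274-positive fibroblasts of the Cre library had 228 CPM of Vcam1, against 164 in Cd274-negative ones. In the control library the values were 119 CPM in Cd274-positive and 131 in Cd274-negative fibroblasts. Lgals9 was higher in Cd274-positive fibroblasts of both libraries, at 288 against 219 CPM in the Cre library and 271 against 209.6 in the control library. The positive cells were deeper in both.

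Interferon response genes were higher in the same fibroblasts. All 10 genes of an indicator list were at least 1.5-fold higher in the Cre library, where 3.8% of measured genes were, with a median log2 ratio of 1.83. Irf1, an interferon gamma target, had 622 CPM in the Cre library and 394 in the control library. In the subepithelial gate Irf1 had 465 CPM in the Cre library and 537 in the control library. Their part in the values of the 7 genes was not tested.

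RNA of gene lists named for other cell types also differed, and which cells made it was not tested. The leukocyte list summed to 39.3 CPM in fibroblasts of the Cre library and 31.0 in those of the control library. Its genes went in opposite directions within this sum. Cd74 had 18.1 CPM in the Cre library and 4.18 in the control library, and Jchain 7.23 and 19.0. A UMI of the list was seen in 15.6% of fibroblasts of the Cre library and 7.62% of those of the control library. All 12 of its genes had a UMI in the Cre library and 10 in the control library, and Ptprc, which encodes CD45, had 11 UMIs in the Cre library and 4 in the control library. Haemoglobin and other erythroid genes summed to 116 CPM in the Cre library and 1.53 in the control library. Of the 7135 erythroid UMIs in fibroblasts of the Cre library, 6877 lay in 64 unclassed fibroblasts, and the 4 gates had sums of 5.09 to 6.95 CPM in the Cre library and 1.23 to 3.67 CPM in the control library. Leaving out every cell with a leukocyte or erythroid UMI kept both calls, Icam1 and Cd274, in fibroblasts.

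Of 30 other genes of leukocyte adhesion, 17 were measured in fibroblasts. Past 1.5-fold, 2 lay above and 0 below the control library. The median log2 ratio of the 17 was -0.19. Of all genes measured in fibroblasts, 3.8% were 1.5-fold higher and 3.15% were 1.5-fold lower. Aoc3, a vascular adhesion protein with amine oxidase activity, had 26.0 CPM in the Cre library and 4.74 in the control library, a ratio of 5.49 (4.86 to 6.23). The tetraspanin gene Cd81 had 391 CPM in the Cre library and 246 in the control library, and it is also among the trophocyte gate's markers. The lowest ratios were those of Fn1, which encodes fibronectin, at 745 CPM in the Cre library and 1076 in the control library, and of F11r, a junctional adhesion molecule gene, at 8.78 and 12.5 CPM. The tetraspanin gene Cd9 was among the most abundant, with 702 CPM in the Cre library and 860 in the control library.

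Of 31 other checkpoint and costimulatory ligands or their partners, 12 were measured, 0 were 1.5-fold higher and 1 was lower with 1 CPM added. That was Lgals3, a galectin gene, at 108 CPM in the Cre library and 186 in the control library. Over all genes measured in fibroblasts the shares were 3.8% higher and 3.15% lower, so counts this small in 12 genes were not read as a result. The highest ratios were those of Thbs1, which encodes thrombospondin-1, a further ligand of CD47, at 611 CPM in the Cre library and 438 in the control library, and of the checkpoint gene Vsir, at 47.7 and 42.2 CPM. Icosl, the ligand of the T cell costimulator ICOS, had 35.8 CPM in the Cre library and 53.8 in the control library, a ratio of 0.666 that passes 1.5-fold without the added CPM and misses it with it, at a log2 ratio of -0.57. Lgals1, the most abundant of the list, had 1469 CPM in the Cre library and 1883 in the control library.

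Across 16 gate-by-library units with at least 50 cells, the genes whose log2 CPM ran most like each of the 5 were named among 9764 genes. These are Pearson correlations over units that share 2 libraries and their depths, given as a description. For Icam1 they were Rnase4 (r = 0.92), Cpq and Crtap. For Vcam1 they were Prrg1 (r = 0.89), Serpina3n and Cp. For Cd274 they were Parp12 (r = 0.88), Uba7 and Csf2ra. For Cd47 they were Cd302 (r = 0.96), Ppib and Npc2, and for Lgals9 they were Ifitm1 (r = 0.94), Srpx2 and Lrrk1.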

How the data were processed

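Single-cell RNA of sorted colon stromal cells was analysed in 1 library per genotype. Values as deposited by the authors are unnormalized UMI counts, 1 matrix per library. Cell Ranger 8.0.1 and GRCm39 are named in the submitters' processing notes, and other upstream settings were not given in the sources used here. Both matrices hold the same 33696 features, and for 26 repeats of a symbol the earlier row stands. All sample columns were used, so 0 were set aside.

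Cells needed 500 or more genes and no more than 10% of UMIs from mitochondria, which removed 214 of the Cre library and 330 of the control library. Scrublet (scanpy 1.11.5, expected rate 8%) called 97 doublets in the Cre library and 477 in the control library, at score cutoffs of 0.42 and 0.295, so the call numbers do not compare doublets. A cell entered a gate on at least 3 markers detected, with at least 10 UMIs of the list per 10000 for gates of other cell types. Both libraries were clustered together, with no batch integration, by leidenalg 0.10.2 (resolution 1; 15 neighbours in 30 components of 2000 variable genes), giving 19 clusters, of which 13 were fibroblast clusters.

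UMI counts were summed per gate and library and given as CPM. Log2 ratios used 1 CPM added, and a call means at least 1.5-fold at a mean of at least 10 CPM. CPM intervals are exact Poisson, shares Clopper-Pearson, and ratios exact conditional binomial, at 95%. A floor for 0 counts is 3 counts. For thinned shares, 415 fibroblasts of the Cre library and 773 of the control library with under 2000 UMIs were left out. The ratio step was tested on simulated counts. edgeR 4.0.16 gave TMM factors as an alternative only, and 14 alternatives were planned and 2 added after seeing the data.

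The genes and lists were chosen with earlier results of these data known. Besides the 7 genes, those named from the other adhesion and checkpoint lists are the 2 highest and 2 lowest log2 ratios and the 2 most abundant measured in fibroblasts, and the 3 genes most alike by Pearson's r. Interferon indicators and markers of other cells are named beside results they move with.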

Additional observations from a re-analysis of the deposited data

Results flagged for a closer look

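Vcam1 differed in direction between cell groups. Its CPM ratio, Cre library over control library, had an interval above 1 in 12 of the gates and fibroblast clusters with at least 50 cells per library, which share cells, and below 1 in 2 clusters. These were cluster 9, with a ratio of 0.549 (0.433 to 0.702), and cluster 1, with a ratio of 0.788 (0.656 to 0.954). Cluster 1 held 53 cells of the control library. The difference between clusters was not tested.

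Cells that passed no gate were used in no comparison between gates, though the values of clusters and of all kept cells include them. In these, Cd274 stood at 79.5 CPM in 152 cells of the Cre library and 8.55 CPM in 139 cells of the control library, from 23 UMIs in the Cre library and 2 in the control library. In the Cre library the 23 UMIs lay in 12 cells, of which 5 held at least 10 UMIs of leukocyte genes and carried 14 of the 23. Of the same 12 cells, 2 held at least 10 UMIs of blood endothelial genes. Over all cells that passed no gate, the leukocyte list summed to 2737 CPM in the Cre library and 594 in the control library. Their median depths were 1387 and 1240 UMIs.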

How the results depend on the processing

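No paired analysis was possible because each genotype has 1 library, and for the same reason none could be left out. The number of the 7 genes at least 1.5-fold higher in fibroblasts was 2, Icam1 and Cd274, and was 1 under 3 settings. With a minimum of 50 CPM, Cd274 was not measured. With the 4 fibroblast gates weighted alike, and with fibroblast clusters weighted alike (added after seeing the data), Icam1 fell below the call, at log2 ratios of 0.45 and 0.22. The number lower was 0 in each setting. Over the alternatives, the log2 ratio in fibroblasts lay between 0.22 and 0.69 for Icam1 and between 0.15 and 0.45 for Vcam1. For Cd274 it lay between 0.89 (10 CPM added) and 1.58. In the trophocyte gate the log2 ratio of Vcam1 was 0.06 and lay between -0.44 and 0.57. In the subepithelial gate that of Vcam1 lay between 0.53 and 1.59. When adventitial gated cells were kept only where the cluster had the same leading markers, Cd274 fell under the 10 CPM minimum, at 13.6 CPM in the Cre library and 5.15 in the control library. Of the other single values, 346 stayed within the counting interval of the main value and 89 moved outside it. Depth limits Madcam1 and Pdcd1lg2, which had 5 and 7 UMIs in all kept cells of the Cre library and 4 and 1 in those of the control library.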
